A study of Homo sapiens with 10 samples.

Results

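This section describes the retained-intron transcripts of protein-coding genes in EndoC-βH1 cells, a human insulin-producing beta cell line, with and without a knockdown of the splicing factor SRp55. A transcript belonged to the set if GENCODE 44 gives it the biotype retained_intron, its gene is protein coding, and its mean over the 10 libraries was at least 0.5 RPKM (reads scaled to the transcript's length and to the library's total). The set held 8857 of the 25836 retained-intron transcripts of coding genes listed, or 34.3%, among 155130 listed transcripts of all kinds. These members lay in 4177 genes, which is 33.0% of the 12644 coding genes with a summed level of at least 0.5 RPKM.

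Both groups were the same cell line. Every library title, in both groups, also carries the word exposed. The titles do not state to what, so a further treatment shared by both groups cannot be told from them. One group of 5 libraries received a control siRNA and the other group of 5 received an siRNA against SRp55 (named siSR#2 in the labels), and each library came from one of 5 independent preparations. Polyadenylated RNA was sequenced, so RNA without a tail is not covered. A single siRNA was used, so effects of SRp55 loss and other effects of that siRNA cannot be told apart. Each library value is one measurement of a bulk culture, in which fewer cells with a transcript and less of it per cell cannot be told apart.

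In intron retention an intron stays in an otherwise processed and polyadenylated RNA. Such RNAs are often held in the nucleus, or meet a premature stop codon and are removed by nonsense-mediated decay, and short, GC-rich introns are known to be retained most often. SRp55, the product of SRSF6, is a serine- and arginine-rich protein that binds exonic sequences and helps the spliceosome to recognise the neighbouring splice sites. Several genes of the splicing machinery carry introns that are retained under steady conditions.

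The sequences below are the ends of selected introns that the results name. First is the intron of SYNE4 whose retention model alone among members passed the unpaired fits. Then come a DGCR8 intron whose model had the next smallest usage p and the introns of the leading TMEM147 model. The last is the same intron in the paralogs CLK1 and CLK4, of which no member passed a fit. Intron numbers refer to the canonical coding transcript in GENCODE 44, and the positions are on GRCh38. The SYNE4 intron 1 is 186 bases at chr19:36008368-36008553 (minus strand), with 63.4% GC. The DGCR8 intron 4 is 164 bases at chr22:20089812-20089975 (plus strand). The TMEM147 introns are intron 4, 136 bases at chr19:35546809-35546944, and intron 5, 89 bases at chr19:35547030-35547118 (plus strand). Intron 4 of CLK1 is 378 bases at chr2:200859747-200860124 and intron 4 of CLK4 is 395 bases at chr5:178616949-178617343 (both minus strand). Each line runs 5′ to 3′ and shows 6 exonic bases in lower case and 24 intronic bases in capitals.
SYNE4 intron 1, 5′ end: cacgagGTGGGGGCCGGGGCTTTGGAAGCT
SYNE4 intron 1, 3′ end: CAGTCACCGCCCCCTGCCTCCTAGcccaga
DGCR8 intron 4, 5′ end: atacggGTAGGGGAGGCATCAGTCGTGACT
DGCR8 intron 4, 3′ end: ATATTGCAATTTCACTATCCACAGaaacac
TMEM147 intron 4, 5′ end: gtcccgGTGCGTACAGCAGCCTGGAGCCCA
TMEM147 intron 4, 3′ end: AATCCCATCCTTTGCCTTCCTCAGctgcat
TMEM147 intron 5, 5′ end: agtctgGTAGGCAGTCGTGCTCTCCCACAT
TMEM147 intron 5, 3′ end: CCCCGACTTTCTGCCTCCCTCTAGgtccat
CLK1 intron 4, 5′ end: caagatGTATAGAATATTTTTCAACACTTA
CLK1 intron 4, 3′ end: CTGAGATTTATTTCTCTCTTTTAGatgaaa
CLK4 intron 4, 5′ end: caagatGTATAGAATATTTTTCAACACTTT
CLK4 intron 4, 3′ end: CCTCTTTTTCCCTCCTCACTCTAGatgaaa
All of these introns begin with GT and end with AG. The 5′ windows of CLK1 and CLK4 are equal at 29 of 30 bases, while their 3′ windows are equal at 16 of 30. For intron 3, not printed here, the windows are equal at 16 of 30 (5′) and 17 of 30 (3′).

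The siRNA target was lowered in every treated library. SRSF6 was at 99.5, 99.5, 92.4, 99.7 and 99.99 RPKM in control preparations 1 to 5 and at 23.8, 23.4, 25.3, 31.1 and 20.96 RPKM after SRp55 siRNA, so 25.3% was left. SRSF6 has 0 retained-intron transcripts in the files. Reads assigned to transcripts numbered 61921258 to 189811706 per library. All 10 beta cell markers were listed above 4 RPKM in every library, and 6 of them had a lower mean after SRp55 siRNA. INS was at a mean of 6597 RPKM in control and 9520 RPKM after SRp55 siRNA. SLC30A8 (77.3 and 171.6 RPKM), PCSK1 (98.4 and 110 RPKM) and MAFA (19.9 and 21.6 RPKM) also had a higher mean. The lower ones were IAPP (34.9 and 17.0 RPKM), PDX1 (99.8 and 79.4), NKX6-1 (23.5 and 15.4), G6PC2 (12.5 and 7.62), ABCC8 (137 and 118) and KCNJ11 (35.8 and 32.2). Of the 18 markers of other cell types, PPY, PRSS1 and CELA3A were listed at 0 in all libraries, and 6 had means over 10 RPKM in both groups. These were TTR (1700 and 2086 RPKM), SST (110 and 92.2), CD68 (41.4 and 41.0), KRT19 (23.7 and 34.9), CPA1 (20.9 and 22.2) and IRX2 (12.1 and 17.1). The part of these levels in the retained-intron shares was not tested.

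Most members were low in level, and few genes held much of the total. The median member reached 1.35 RPKM, with quartiles of 0.784 and 2.97, and the median read number per member and library was 150. Of the 8857 members, 3160 reached 2 RPKM, 594 reached 10 RPKM, and 1927 were listed at 0 in at least 1 library. The members nearest the 0.5 RPKM limit were ZBTB38 ENST00000513249.1 at 0.500008 inside it and RNF41 ENST00000548225.1 at 0.499996 outside. A single member was found in 2074 genes and 5 or more in 342 genes, up to 23 in ACADVL, an enzyme of mitochondrial fatty acid oxidation. The 10 genes with the most held 11.98% of all member RPKM, the 100 highest held 35.1%, and 254 genes made up 50% of it.

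The genes with the most retained-intron RPKM were highly expressed housekeeping genes. EEF1A1, the translation elongation factor, held 1279 ± 576 RPKM of such models in control and 1568 ± 411 RPKM after SRp55 siRNA (SD, n = 5 each). ACTG1, a cytoplasmic actin, held 794 ± 114 and 952 ± 104 RPKM, and RPS28, a protein of the small ribosomal subunit, held 358 ± 150 and 405 ± 135 RPKM. HSP90B1, OAZ1, TRIM28, RPL13, TUBA1C, PTMA, YWHAE, RPL4 and MIF followed. For several of these the model has little sequence of its own. The ACTG1 model ENST00000576209.1 (chr17:79477031-79479176 in GRCh37, minus strand, 1698 bases) averaged 814 RPKM, and 0.471% of its length lies outside the exons of coding transcripts of the gene. The RPS28 model ENST00000417088.2 (chr19:8386518-8387280, plus strand, 334 bases) averaged 376 RPKM with 6.59% of its length outside coding exons. Both MIF members lie wholly over exons of other genes on the opposite strand, and 60.6% and 82.1% over such exons on the same strand. Of the TUBA1C member, 45.0% lies over exons on the opposite strand.

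Summed over genes, retained-intron transcripts made up 7.50% ± 0.592 of the RPKM of protein-coding genes in control and 8.09% ± 0.171 after SRp55 siRNA (SD, n = 5 each). The control libraries 1 to 5 had 7.79, 7.44, 6.68, 8.28 and 7.30%, and the SRp55 siRNA libraries 7.97, 8.08, 8.28, 7.89 and 8.25%. The groups overlap because control library 4 was level with the highest treated library. The difference of 0.595 percentage points did not pass (exact two-sided permutation test, p = 0.0635, smallest possible p = 0.00794), and it was positive in 4 of 5 replicate numbers. Without control library 4 the difference was 0.790 points (exact permutation p = 0.00794, the smallest possible), and without control library 3 it was 0.391 points (exact permutation p = 0.119). Counted as estimated reads instead of RPKM, which weights models by their length, the share was 4.36% ± 0.399 and 4.73% ± 0.161 (exact permutation p = 0.0714).

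The other transcript classes of the same genes give the frame for this value. Models with the biotype protein_coding held 73.2% ± 1.45 and 72.0% ± 0.610 (exact permutation p = 0.135), and nonsense-mediated decay models held 5.19% ± 0.284 and 5.47% ± 0.224 (exact permutation p = 0.0952). Transcripts of coding genes with no defined coding sequence held 6.73% ± 0.720 and 7.31% ± 0.483 (exact permutation p = 0.19). Models with no biotype in GENCODE 44 held 5.25% ± 0.0954 and 5.04% ± 0.103, lower after SRp55 siRNA in 5 of 5 replicate numbers (exact permutation p = 0.0238 in RPKM, 0.151 in estimated reads). That permutation test ignores the replicate numbers. With 5 pairs an exact sign-flip permutation test cannot go below p = 0.0625, so by replicate number this class could not pass. The library values of both groups overlapped in each of these classes, and control libraries 1 and 4 were the lowest for protein_coding models in the control group.

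**Figure D1:**
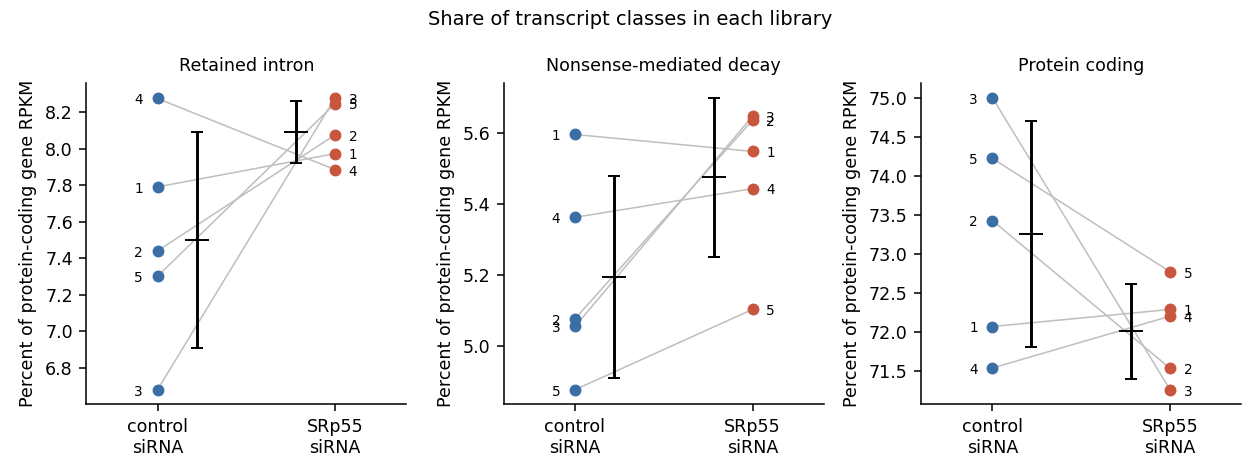
Percent of the RPKM of protein-coding genes held by retained-intron, nonsense-mediated decay and protein_coding models in each library (points, with grey lines joining equal replicate numbers), with the group mean and SD as bars (n = 5 each). The axes do not start at 0. The retained-intron points of the control group run from 6.68 to 8.28% and those of the SRp55 siRNA group from 7.89 to 8.28%.

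Within single genes the share was usually small and varied widely between libraries. The median gene with a member had 12.6% of its RPKM in retained-intron models in control (quartiles 5.13 and 25.4%) and 13.6% after SRp55 siRNA (5.64 and 26.6%). The mean share was over 50% in 238 genes in control and in 283 genes after SRp55 siRNA, but in only 62 genes was it over 50% in each of the 10 libraries. The median SD within a group was 5.67 points, larger than the median absolute shift between groups of 2.69 points. The ranks of gene shares correlated between libraries at a Spearman rho of 0.635 to 0.718 within groups and 0.632 to 0.746 between groups, as a description across genes that share annotation and quantification. Single-gene shares here and below are in RPKM. Averaged over the libraries, the median gene had 13.3% in RPKM and 6.97% in estimated reads. Single genes differ in both directions. By reads SLU7 had 25.4% in control against 65.2% in RPKM, and MCM7 had 62.4% against 44.7%.

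**Figure D2:**
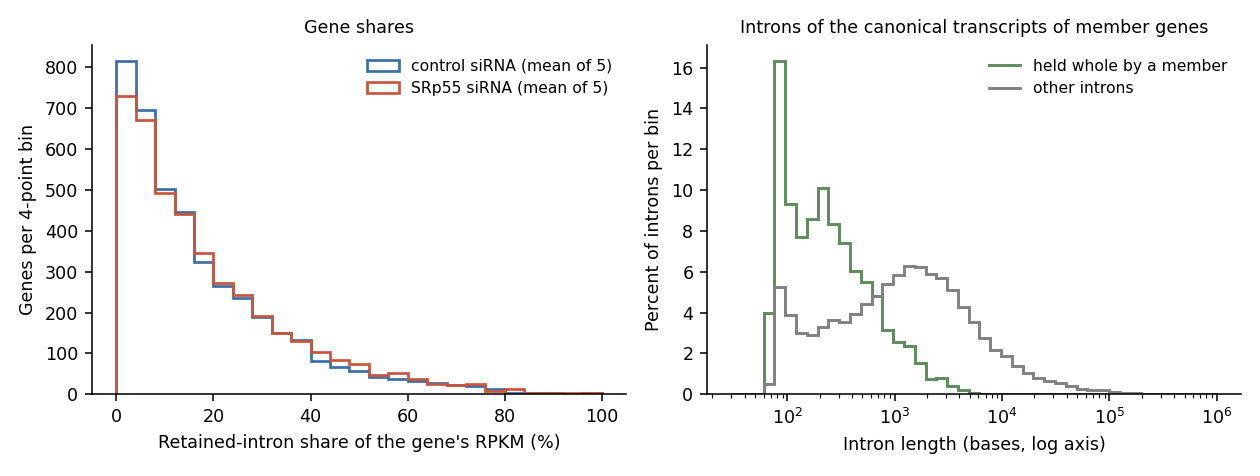
Left, number of genes (4-point bins) by mean retained-intron share of the gene's RPKM, for the control siRNA group and the SRp55 siRNA group. Right, length distribution on a log axis of introns of the canonical transcripts of member genes, held whole by a member or not; the medians are 209 and 1197 bases.

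The biotype retained_intron itself describes intronic sequence in a model. The counts of how members hold introns therefore describe the choice of members and are not an independent feature. Of the 8857 members, 3487 (39.4%, with 35.5% of member RPKM) hold an intron of a coding transcript of the gene from end to end. Another 5111 (57.7%, with 61.3% of the RPKM) only begin or end inside such an intron, and 259 do neither. These kinds were read from GENCODE 44 exons, where 92.3% of members have the deposited length. The other members include all 4 of EEF1A1, such as ENST00000491404.1 with 633 deposited bases and 2109 in GENCODE 44. For such members the kind may differ from that of the model that was quantified. Members were short, with a median of 761 bases against 1757 bases for protein_coding transcripts at the same minimum level. A median of 32.0% of a member's GENCODE 44 length lies outside coding exons. In 1090 members this part is under 10%, so most of their sequence is shared with coding exons.

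Of the introns of canonical transcripts in member genes, 3567 were held whole by a member, and these were short, with a median of 209 bases (quartiles 107 and 429) against 1197 bases (358 and 3133) for the other 51712. A short model can hold only a short intron, and the part of that in the difference was not tested. Position in the gene differed little among transcripts with 3 or more introns. Of 3540 retained introns there, 6.07% were the first and 7.97% the last, against 7.49% and 7.36% of the 51562 others. Counting every coding transcript, 4782 distinct introns in 1816 genes were held whole by members of unchanged length, with a median GC content of 57.8%. Their ends were GT and AG in 97.8%, GC and AG in 1.82%, and AT and AC, the ends used by some introns of the minor spliceosome, in 0.188%.

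Many members overlap other genes, and whether reads were counted by strand is not known here, so their values may include reads of those genes. On GENCODE 44, 2215 members (25.01%) overlap an exon of another gene, 1429 of them on the opposite strand and 973 on the same strand. Restricted to models that overlap no such exon, the summed share was 5.54% in control and 5.99% after SRp55 siRNA (exact permutation p = 0.111). Restricted to models that hold a whole intron in GENCODE 44, it was 2.69% and 2.86% (exact permutation p = 0.262).

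The 12 genes with the highest retained-intron share among those with at least 5 RPKM had no member that passed the tests given below, and their group means lay within 10 points of each other. DENND1C, which encodes a DENN-domain exchange factor for Rab proteins, had 100% in every library, since its coding models were listed at 0 throughout. Its 860-base model ENST00000591795.1, which holds introns 21 and 22, was at 53.0, 2.95, 28.2, 63.1 and 4.78 RPKM in control and 56.4, 1.71, 38.2, 55.7 and 30.8 RPKM after SRp55 siRNA. It was low in control preparations 2 and 5 and in treated preparation 2, which are also the libraries where the longer model ENST00000590444.1 was above 0. The estimated levels of these overlapping models thus alternated between libraries of both groups.

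ZACN, a zinc-activated ion channel gene, had 98.3% ± 0.658 in control and 97.4% ± 1.39 after SRp55 siRNA, all of it in a single-exon model of 2651 bases that lies wholly over exons of a gene on the opposite strand. RPS28 had 96.4% ± 1.27 and 97.2% ± 0.682. KIAA1522 had 90.5% ± 4.97 and 91.3% ± 2.54, and TMEM86B, an enzyme of plasmalogen breakdown, had 90.8% ± 6.27 and 89.9% ± 6.46. A1BG had 85.4% ± 14.7 and 95.3% ± 3.67, with 96.4% of its leading model inside exons of another gene on the same strand.

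STAG3, a cohesin subunit of meiotic cells, had 83.9% ± 16.2 and 86.6% ± 13.4. PAN2, a catalytic subunit of the poly(A) nuclease, spread 83.3% ± 7.46 and 81.4% ± 5.07 over 11 members, and ATAD3C had 85.9% ± 5.18 and 78.5% ± 8.24. ACTN2, an alpha-actinin of muscle Z-discs, had 76.9% ± 10.4 and 86.1% ± 1.57 in a single model with 4.55% of its length outside coding exons. MAN2C1, a cytosolic alpha-mannosidase, had 79.9% ± 10.7 and 82.7% ± 6.44, and its leading model lies wholly over exons on the opposite strand. HSBP1L1 had 79.0% ± 18.7 and 82.3% ± 17.4. In each of these genes the library values of both groups overlapped.

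**Figure D3:**
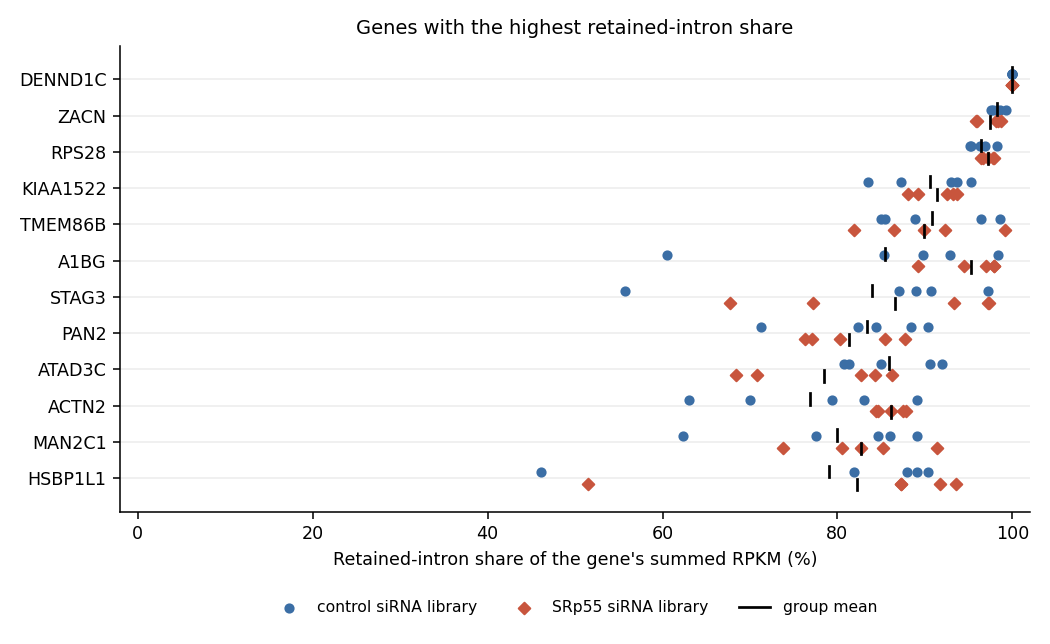
Retained-intron share of the gene's summed RPKM in each library (circles control siRNA, diamonds SRp55 siRNA, 5 each) for the 12 genes with the highest share among genes of at least 5 RPKM; short black lines are group means. DENND1C is at 100% in all libraries, and HSBP1L1 has 1 low library in each group (46.1 and 51.5%).

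Usage, the level of a transcript against the other transcripts of its gene, passed in 1 member in the unpaired fit. With the replicate number as a block, 0 members passed in usage and 0 in level. In limma fits of log2((RPKM + 0.5)/(RPKM of the other transcripts + 0.5)), 7 of 56641 transcripts of all kinds passed at a Benjamini-Hochberg adjusted p of 0.05, which is 0.0124%, and among the 8857 members the count was 1. At an unadjusted p under 0.05 there were 445 members (5.02%), against 5.73% of all tested transcripts. The median usage difference of the members was 0.01 on the log2 scale, against -0.02 for all transcripts tested. A fit of the level, log2(RPKM + 0.5), passed 48 of 57818 transcripts (0.083%; 26 higher and 22 lower, or 18 higher and 46 lower of 64 after median-of-ratios scaling) and again 1 member. Unadjusted, 614 members (6.93%) were under 0.05 in the level fit against 9% of all transcripts.

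SYNE4 holds that member. It encodes nesprin-4, a protein of the outer nuclear membrane that links the nucleus to kinesin. The model ENST00000505054.2 (chr19:36494209-36499512 in GRCh37, minus strand, 713 bases in 3 exons) keeps the intron 1 whose ends are printed above, and overlaps no exon of another gene. It was at 15.8, 10.2, 8.97, 18.8 and 9.31 RPKM in control preparations 1 to 5 and at 0.573, 0.477, 0.419, 0.388 and 0.149 RPKM after SRp55 siRNA. All treated libraries lay below all controls. Its share of the gene fell from 71.8% ± 5.17 to 4.13% ± 1.86 (SD, n = 5 each), a log2 usage difference of -4.76 (SE 0.30, limma adjusted p = 0.000308). The level fit gave -3.82 (SE 0.26, limma adjusted p = 0.000605). With the replicate number as a block the size is the same but the call is lost, at a limma adjusted p of 0.0983 for usage and 0.067 for level.

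None of the remaining SYNE4 transcripts passed. The main coding model ENST00000324444.3 was at 1.95 ± 0.625 RPKM in control and 3.33 ± 1.54 RPKM after SRp55 siRNA. The coding model ENST00000490730.1 was at 0.548 ± 0.294 and 3.62 ± 3.37 RPKM, with treated library 1 at 9.30 RPKM (limma adjusted p = 0.38 for level). The other retained-intron model of the gene, ENST00000465425.1, was at 0.707 ± 0.218 and 0.905 ± 0.407 RPKM. The summed SYNE4 level was 17.3 ± 4.96 RPKM in control and 10.4 ± 4.15 RPKM after SRp55 siRNA.

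**Figure D4:**
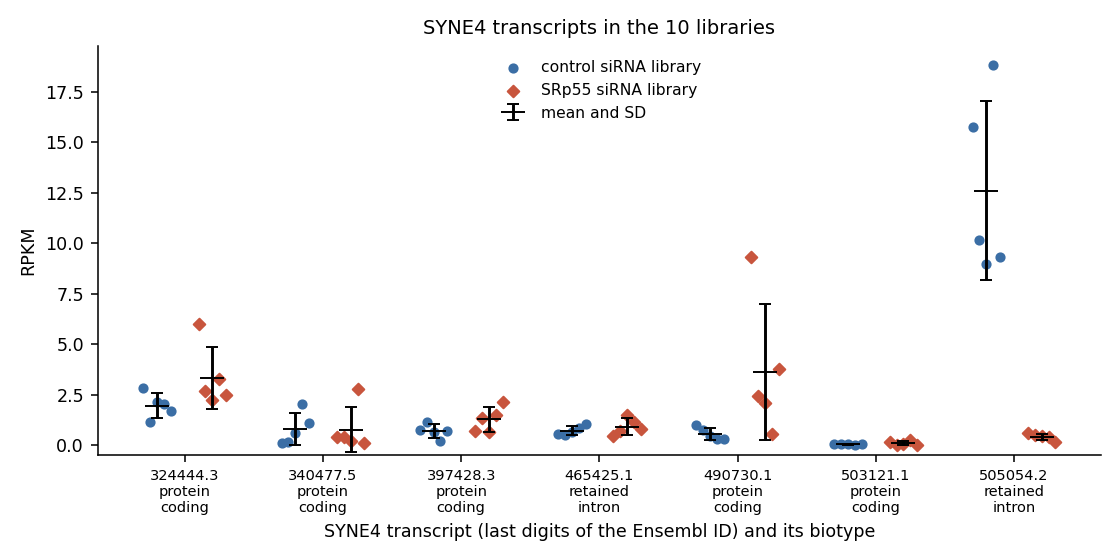
RPKM of each listed SYNE4 transcript in the 10 libraries (circles control siRNA, diamonds SRp55 siRNA), with mean and SD (n = 5 each). The retained-intron model ENST00000505054.2 is at 8.97 to 18.8 RPKM in control and at 0.149 to 0.573 RPKM after SRp55 siRNA.

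DGCR8, the RNA-binding partner of Drosha in microRNA processing, held the next smallest p among members, and was chosen for description after its values were seen. Its model ENST00000498171.1, which keeps intron 4, was at 3.02, 2.14, 0.612, 2.80 and 1.87 RPKM in control and 7.56, 6.92, 9.16, 6.35 and 8.89 RPKM after SRp55 siRNA. Its share of the gene was 9.87% ± 4.15 and 37.9% ± 5.90 with no overlap between the groups, but did not pass (limma adjusted p = 0.133 for usage, 0.0977 for level). The model ENST00000495826.1 had shares of 10.2% ± 3.33 and 1.88% ± 0.754, again with no overlap and no call (limma adjusted p = 0.366 for usage). Its level lay just above the limit (limma adjusted p = 0.0514, or 0.162 with the replicate block). Both models span most of the gene, and only 8.06% and 10.2% of their length lies outside coding exons.

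Other DGCR8 models passed a fit. ENST00000351989.3 was at 5.06 to 7.53 RPKM in control and listed at 0 in all treated libraries (limma adjusted p = 5.55e-05 for level, 0.046 with the replicate block; 0.000308 for usage, a call lost with the block at 0.0983). ENST00000383024.2, which has no biotype in GENCODE 44, was at 0.302 ± 0.498 RPKM in control and 6.57 ± 2.26 RPKM after SRp55 siRNA (limma adjusted p = 0.0248 for level, 0.161 with the replicate block). The share of all 6 retained-intron members of DGCR8 together was 61.3% ± 7.64 and 58.8% ± 4.37, with overlapping groups.

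Genes whose share differed in one direction in all 5 replicate numbers were about as frequent as for other transcript classes. Of the 4177 genes, 345 did so (8.26%), 229 with a higher and 116 with a lower share after SRp55 siRNA; over all classes of transcripts the rate was 7.67% (3.83% higher, 3.85% lower). In 48 genes (1.15%, against 1.09% over all classes) the groups did not overlap, 36 higher and 12 lower. Higher shares were also the more frequent direction for nonsense-mediated decay models, with 181 genes higher and 106 lower of 3328. For protein_coding models the count was 225 higher and 599 lower of 11653. Shares within a gene sum to 100%, so these counts depend on each other. A limma fit of the summed retained-intron RPKM against the rest of the gene passed 5 of 22101 gene classes (0.0226%), among them the retained-intron class of SYNE4 (adjusted p = 0.00736) and of no other gene, and 0 with the replicate block. Unadjusted, 224 of 4176 retained-intron classes (5.36%) were under 0.05, against 6.19% of all classes.

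The largest shifts without overlap were chosen after the values were seen, 8 in each direction among genes with at least 5 RPKM, and are given as a description. Among the higher shares, TMEM147, an endoplasmic reticulum protein that associates with the translocon, had 7.32, 2.35, 1.44, 2.14 and 1.64% in control and 9.51, 10.6, 18.2, 24.7 and 19.5% after SRp55 siRNA. Most of it came from ENST00000599895.1, which keeps introns 4 and 5 and was at 1.84 RPKM in control and 7.27 RPKM after SRp55 siRNA on average. Treated library 1 is close to control library 1, and the other pairs lie far apart (limma adjusted p = 0.374 for the gene's class). TMEM38A, a potassium channel of the sarcoplasmic and endoplasmic reticulum, had 31.6, 23.4, 30.6, 36.6 and 28.7% in control and 47.1, 51.7, 50.3, 44.5 and 43.2% after SRp55 siRNA, in a single model that begins or ends in an intron. COA8, a cytochrome c oxidase assembly factor, had 51.2, 1.87, 0, 41.0 and 43.3% in control and 68.3, 64.4, 72.9, 52.1 and 75.8% after SRp55 siRNA, so control libraries 2 and 3 carry much of its shift.

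SDK1, a cell adhesion protein, had 13.2% ± 5.75 in control and 49.3% ± 27.1 after SRp55 siRNA, the widest spread of this group. ETFB, a subunit of the electron transfer flavoprotein, had 2.18% ± 3.11 and 17.3% ± 10.4, and AVL9 had 13.8% ± 3.85 and 27.9% ± 5.63. KCTD10, an adaptor of cullin 3 ubiquitin ligases, had 6.82% ± 4.12 and 19.4% ± 4.71, and USP54 had 6.87% ± 0.748 and 17.2% ± 4.80. Of the leading USP54 model, 65.4% lies over exons on the opposite strand, and of the ETFB model 55.9% lies over exons of another gene on the same strand.

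Among the lower shares, SYNE4 was followed by WBP2, a WW-domain-binding coactivator, with 45.1, 24.6, 57.5, 25.01 and 36.6% in control and 10.5, 17.2, 22.6, 5.20 and 17.6% after SRp55 siRNA. AK7, an adenylate kinase of cilia, had 22.2% ± 6.08 and 9.05% ± 3.48, and AAK1, the kinase of the AP2 clathrin adaptor, had 20.5% ± 4.32 and 8.93% ± 4.59. UCK2, a uridine-cytidine kinase, had a narrow range of 37.7 to 41.4% in control and 21.8 to 37.3% after SRp55 siRNA. ZDHHC3, a palmitoyltransferase, was at 2.14 to 14.0% in control and listed at 0 in 4 of 5 treated libraries. STOML1, a stomatin family protein, had 10.7% ± 3.51 and 3.88% ± 1.51, and COPS5, the isopeptidase of the COP9 signalosome, had 10.7% ± 3.21 and 5.66% ± 0.882. Apart from SYNE4 the limma adjusted p of these 16 genes' classes lay between 0.374 (TMEM147) and 0.849 (UCK2).

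**Figure D5:**
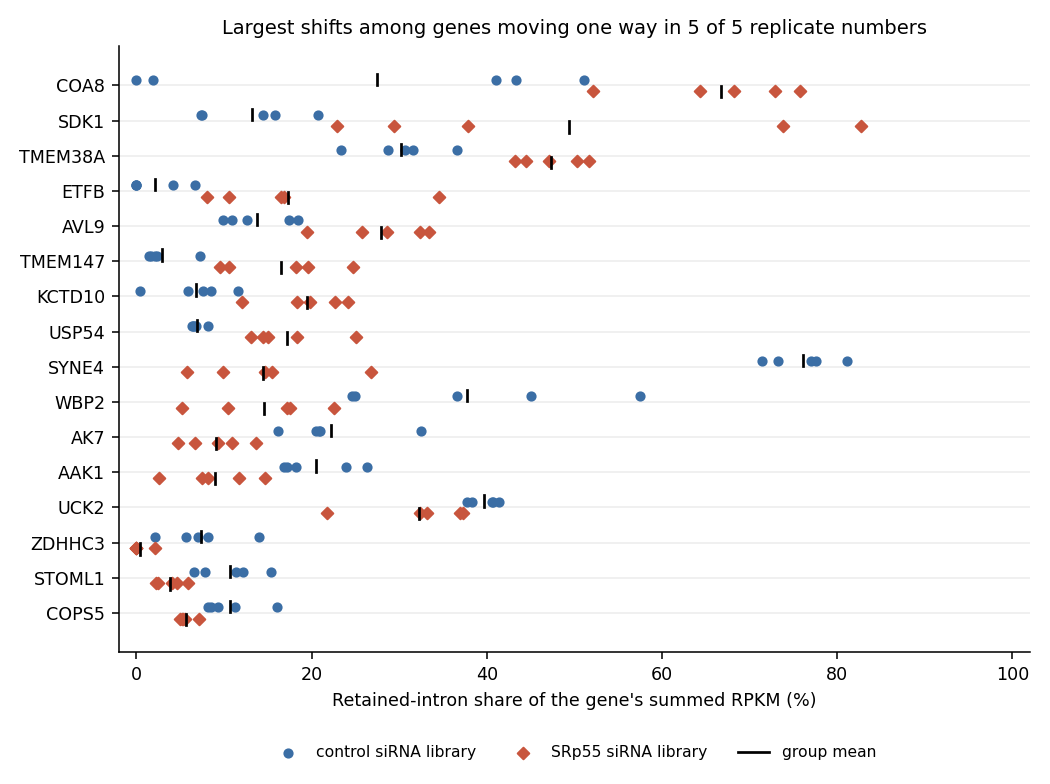
Retained-intron share of the gene's summed RPKM in each library (circles control siRNA, diamonds SRp55 siRNA, 5 each; short black lines are group means) for the 8 largest upward and 8 largest downward shifts among genes whose groups did not overlap. Among them SYNE4 has the widest gap, from 71.4 to 81.1% in control to 5.76 to 26.7% after SRp55 siRNA, and the genes were chosen for their separation.

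Gene lists for splicing, the beta cell, stress and growth are described by their counts and medians. Among SR proteins and their relatives, 29 of 36 measured genes had a member, and their median share was 21.8% in control and 20.5% after SRp55 siRNA, against 12.6% and 13.6% over all genes. The mean share was higher after SRp55 siRNA in 11 and lower in 18 of the 29, while 58.7% of all 4177 genes had a higher mean. Of the 29, 3 had a higher and 5 a lower share in all 5 replicate numbers, against 8.26% of all genes with a member in either direction. Of their 103 members 0 passed either limma fit, and 6 were under an unadjusted usage p of 0.05. Over all members 5.02% were under that limit. This rate, with the 58.7% and 8.26% above, is the background for every list below. SRSF2, an SR protein that regulates its own splicing, had 48.6% ± 10.4 and 47.0% ± 7.90, of which its leading model has 5.99% of its length outside coding exons. ACIN1, an SR-related protein of the exon junction periphery, had 34.4, 36.8, 37.6, 52.7 and 40.4% in control and 48.7, 49.2, 57.2, 56.3 and 52.3% after SRp55 siRNA, higher in 5 of 5 numbers but overlapping. SRRM2, a scaffold of nuclear speckles, had 37.2% ± 3.797 and 36.8% ± 3.38, and SREK1 had 32.6% ± 5.80 and 38.0% ± 6.40. The SR proteins with a lower share in all 5 numbers included SRSF5 (19.3% and 12.6%), SRSF11 (10.8% and 7.59%) and SRRM1 (17.2% and 7.81%), named after their values were seen.

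The CLK, SRPK and DYRK kinases phosphorylate SR proteins. A member was present in 6 of 9 measured genes, with a median share of 14.4% in control and 15.6% after SRp55 siRNA. The count of genes goes against the medians, with a higher mean share in 2 and a lower one in 4, and 0 moved one way in all 5 numbers. Of 15 members 0 were under an unadjusted usage p of 0.05 and 0 were called by limma. CLK1 had 29.5, 49.97, 32.9, 37.6 and 36.4% in control and 29.1, 29.9, 37.2, 38.7 and 36.7% after SRp55 siRNA, with no separation. Its leading model ENST00000473565.1, which spans 3208 bases and keeps introns 3 and 4, was at 5.47 RPKM in control and 4.07 RPKM after SRp55 siRNA. CLK4, whose model ENST00000519583.1 keeps introns 3 and 4 as well, had 17.3% ± 9.61 and 17.2% ± 9.82. DYRK1A had 16.1% ± 3.60 and 15.3% ± 4.30, and SRPK1 had 12.7% ± 7.88 and 15.9% ± 4.97.

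Among hnRNP and related RNA-binding proteins, 27 of 41 measured genes had a member, with a median share of 4.66% in both groups. The mean share was higher after SRp55 siRNA in 17 and lower in 10, and 3 genes were higher and 3 lower in all 5 numbers. Of 101 members 3 were under an unadjusted usage p of 0.05 and 0 were called by limma. RBM39, a splicing coactivator, had 41.6% ± 20.2 and 44.6% ± 6.53. TIA1, which binds uridine-rich intron sequences, had 29.5% ± 10.4 and 36.8% ± 4.48, and PTBP2, the neuronal polypyrimidine tract protein, had 40.7% ± 26.8 and 21.5% ± 26.2, lower in 5 of 5 numbers. In the core spliceosome 32 of 53 genes had a member, with medians of 16.6% and 15.8%. The count of genes goes the other way, with a higher mean share after SRp55 siRNA in 24 and a lower one in 8. Over all genes with a member 58.7% had a higher mean share. In all 5 numbers 1 gene was higher and 2 were lower. Of 92 members 1 was under an unadjusted usage p of 0.05 and 0 were called by limma. SLU7, a factor of the second splicing step, had 65.2% ± 4.08 and 70.0% ± 3.97, and SF3A2, a subunit of the U2 particle, had 43.0, 42.3, 50.7, 67.9 and 38.2% in control and 65.3, 69.3, 62.3, 61.7 and 58.7% after SRp55 siRNA. The SF3A2 groups overlap through control library 4 alone. DDX5 had 47.7% ± 4.30 and 53.2% ± 5.79, although its leading model has 0% of its length outside coding exons, and SNRNP70 of the U1 particle had 42.0% ± 22.6 and 56.1% ± 5.29.

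Genes of nonsense-mediated decay, the exon junction and the RNA exosome had a member in 15 of 33 cases, with medians of 12.4% and 11.5%, a higher mean share after SRp55 siRNA in 7 genes and a lower one in 8, and 0 genes moving one way in all 5 numbers. SMG9, a cofactor of the SMG1 kinase, had 57.1, 48.3, 51.4, 57.4 and 46.7% in control and 60.6, 67.6, 71.2, 57.0 and 62.4% after SRp55 siRNA, higher in 4 of 5 numbers. EXOSC2 had 36.6% ± 10.7 and 43.0% ± 6.66, SKIC2 had 22.6% ± 11.2 and 27.7% ± 15.7, and SMG6 had 21.4% ± 22.0 and 17.2% ± 23.0. The leading SMG6 model is a single exon wholly over exons on the opposite strand. No member of these genes passed either limma fit, and 0 of 34 were under an unadjusted usage p of 0.05.

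In genes of beta cell identity and insulin secretion, 14 of 43 had a member, with a median share of 10.5% in control and 13.7% after SRp55 siRNA and a higher mean share in 9 genes against a lower one in 5. ABCC8, the sulfonylurea receptor of the potassium channel that triggers insulin release, had 44.4, 40.1, 36.9, 53.2 and 50.1% in control and 50.5, 45.1, 49.8, 57.5 and 53.4% after SRp55 siRNA, spread over 10 members. It was higher in 5 of 5 numbers, by 6.30 points on average against SDs of 6.76 in control and 4.62 after SRp55 siRNA, and its summed level was 137 RPKM in control and 118 RPKM after SRp55 siRNA. PAX6, a transcription factor of islet cells, had 38.6% ± 5.19 and 44.1% ± 4.09. RAB3A and RAB27A, small GTPases of granule exocytosis, had 21.1% ± 5.68 and 21.1% ± 5.25, and 15.7% ± 10.02 and 22.2% ± 11.4. No gene of this list passed in limma, and 0 of its 36 members were under an unadjusted usage p of 0.05.

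Genes of stress and death pathways had 0 members called by limma. Apoptosis genes had a member in 8 of 33 cases (medians 12.1% and 11.8%), JNK signalling genes in 13 of 30 (10.2% and 8.45%) and genes of the unfolded protein response in 14 of 34 (6.79% and 10.7%). The mean share was higher after SRp55 siRNA in 6 and lower in 2 apoptosis genes, against the direction of their medians. It was higher in 6 and lower in 7 JNK signalling genes, and higher in 11 and lower in 3 genes of the unfolded protein response. Over all genes with a member 58.7% had a higher mean share. In the first pair of lists 0 of 16 and 0 of 30 members were under an unadjusted usage p of 0.05, and 0 genes moved one way in all 5 numbers. TRADD, an adaptor of the tumour necrosis factor receptor, had 72.9% and 75.04% in control libraries 1 and 5 and was listed at 0 in the other 8 libraries. CASP6 had 43.9% ± 18.2 and 49.2% ± 17.3, HTRA2 had 17.5% ± 6.84 and 18.4% ± 4.89, and MCL1, an anti-apoptotic BCL-2 relative, had 11.1% ± 5.71 and 17.6% ± 9.09. MAP3K12, a kinase upstream of JNK, was mostly in retention models, with 71.8% ± 7.198 and 75.7% ± 7.06. MAPK8IP3, a JNK scaffold, had 59.3% ± 18.01 and 52.8% ± 13.9, MAP3K4 had 28.2% ± 3.88 and 27.7% ± 11.1, and MAP4K2 had 26.1% ± 7.23 and 20.8% ± 1.56.

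In the unfolded protein response, MBTPS1, the site-1 protease that cleaves ATF6, had 7.84, 8.11, 4.14, 16.3 and 8.62% in control and 12.5, 37.4, 36.0, 28.4 and 19.9% after SRp55 siRNA. Treated library 1 lies below control library 4, and the other 4 treated libraries lie above every control; the share was higher in 5 of 5 numbers (limma adjusted p = 0.743 for the gene's class). EIF2S1, the alpha subunit of initiation factor eIF2, had 61.1% ± 5.21 and 65.5% ± 4.06. The chaperones HSP90B1 and CALR had 37.7% ± 9.83 and 38.4% ± 5.51, and 28.2% ± 6.03 and 31.4% ± 4.87. Of the 32 members on the list 3 were under an unadjusted usage p of 0.05, all with higher usage, and none passed. A higher share in all 5 numbers was found in 2 genes of the list and a lower one in 0.

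Genes of growth and translation close the lists. Cell cycle genes had a member in 20 of 43 cases, with medians of 11.2% and 13.7%. The mean share was higher after SRp55 siRNA in 12 and lower in 8, and 2 genes were higher and 1 lower in all 5 numbers. Of 43 members 1 was under an unadjusted usage p of 0.05 and 0 were called by limma. MCM4, a subunit of the replicative helicase, had 27.5, 20.8, 26.1, 30.04 and 27.2% in control and 41.1, 29.999, 34.6, 37.1 and 30.7% after SRp55 siRNA, higher in 5 of 5 numbers, and the groups met near 30%. RRM2 had 42.9% ± 7.24 and 48.9% ± 4.81, MCM7 had 44.7% ± 10.4 and 41.0% ± 5.88, and CENPF had 36.3% ± 7.22 and 42.8% ± 3.92. Ribosomal protein genes had a member in 60 of 76 cases and the lowest medians of the 12 lists, 1.41% and 1.67%, so that RPS28, RPL35 (61.1% ± 13.4 and 71.3% ± 10.4), RPL30 (48.98% ± 11.5 and 47.5% ± 8.81) and RPL13 (36.8% ± 10.3 and 44.9% ± 9.80) stand far above their family. The mean share of ribosomal protein genes was higher after SRp55 siRNA in 38 and lower in 22, against 58.7% higher over all genes with a member. In all 5 numbers, however, it was higher in 0 and lower in 5, against 8.26% of all genes in either direction. Of their 159 members 5 were under an unadjusted usage p of 0.05 and 0 were called by limma. Of the leading RPL30 model 98.8% lies over exons on the opposite strand.

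Aminoacyl-tRNA synthetases, which charge tRNAs with amino acids, had a member in 15 of 20 cases, with a median share of 17.3% in control and 23.2% after SRp55 siRNA. The mean share was higher after SRp55 siRNA in 13 of the 15 genes, against 58.7% of all genes with a member. In all 5 replicate numbers 2 were higher and 0 lower, against 8.26% of all genes in either direction. QARS1 had 38.4% ± 17.4 and 38.4% ± 11.5, CARS1 had 34.7% ± 32.3 and 36.3% ± 33.6, LARS1 had 31.2% ± 12.8 and 38.3% ± 4.24, and VARS1 had 31.8% ± 6.19 and 36.9% ± 15.6. The groups of these named genes overlapped, 2 of the 46 members were under an unadjusted usage p of 0.05, and none passed either limma fit.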

How the data were processed

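Oligo(dT)-selected RNA was sequenced on an Illumina HiSeq instrument, per the labels' protocols. The submitters' processing notes name TopHat and the build GRCh37 (hg19). Which program assigned reads to transcripts, with which annotation release and whether by strand, is not given in the sources used here. The deposited files list, for each transcript, an estimated read number, a length and RPKM, all made by the authors, and the deposited RPKM equals reads per kilobase divided by 1 total per library. No exon structure is listed, so biotypes (found for 92.4% of transcripts), symbols, exons and the printed intron ends were taken from GENCODE 44 (GRCh38) by transcript identifier, and 92.3% of members have the same length there.

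Members and gene lists were chosen with earlier results of these data known. Values were tested with limma 3.58.1 (trend and robust, R 4.3.3) on the log2 scale with a pseudocount of 0.5 RPKM. The fits covered every transcript whose mean reached 0.5 RPKM, with Benjamini-Hochberg adjustment at 0.05. Summed shares were tested with exact permutation tests over libraries, enumerated in Python 3.11.15. Spearman correlations used scipy 1.17.1. Fold differences of low transcripts are understated by the pseudocount. Depth was 61921258 to 189811706 assigned reads per library. Reads without molecular identifiers are not independent molecules.

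The replicate numbers come from the sample titles. Deviations of gene sums from the group means correlated at 0.128 to 0.414 between equal numbers, and each library correlated best with its own number, which meets the limit set for pairing; for transcript usage the range was 0.0295 to 0.102. The tests reported are unpaired, because the study's methods as given do not state a pairing. Their p-values therefore leave out the correlation between equal numbers. Fits with the number as a block were run as alternatives, given where they change a call. In these, 0 members passed in usage and 0 in level. The labels call the preparations independent. Genes were named as the 12 with the highest share among genes of at least 5 RPKM, the called members, up to 4 per list (called first, then highest share) and SRSF6; the 16 largest shifts without overlap, DGCR8, SRSF5, SRSF11 and SRRM1 were added after the values were seen.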

Additional observations from a re-analysis of the deposited data

Results flagged for a closer look

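In 9 of the 152 groups of 5 libraries examined, 1 library stood apart from the other 4 by Dixon's criterion, while chance flags about 1 in 20. STAG3 was at 55.8% in control library 1 against 87.1 to 97.2% in the others. HSBP1L1 was at 46.1% in control library 5 (others 81.9 to 90.3%) and at 51.5% in SRp55 siRNA library 1 (others 87.3 to 93.6%). PTBP2 was at 66.8% in SRp55 siRNA library 1 (others 0.789 to 18.8%), and SMG6 at 57.6% in SRp55 siRNA library 3 (others 2.67 to 11.2%). TMEM147 and USP54 were at 7.32% and 8.17% in control library 1 (others 1.44 to 2.35% and 6.31 to 6.82%). ZDHHC3 was at 2.09% in SRp55 siRNA library 4 and listed at 0 in the others, and COPS5 at 7.2002% in SRp55 siRNA library 2 (others 5.00 to 5.52%). Of the 9 values, 3 were in control library 1 and 2 in SRp55 siRNA library 1.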

How the results depend on the processing

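The difference in summed share, 0.595 points, kept its sign in every alternative. It passed only for members of at least 2 RPKM (0.585 points, exact permutation p = 0.0476) and without control library 4; leaving out each library gave 0.391 to 0.790 points. The count of 1 member with changed usage became 2 on estimated reads, 0 in the fit by gene with the replicate block, and 1 to 2 when a library was left out. The count of 1 member with changed level became 5 on estimated reads, 2 with a pseudocount of 0.1, 2 with median-of-ratios scaling and 1 to 4 when a library was left out. The SYNE4 model was among the calls in each of these fits except those with the block. DGCR8 ENST00000495826.1 joined it on reads (usage and level) and with median-of-ratios scaling. The 345 genes moving one way became 541 without the minimum level, 174 with a minimum of 2 RPKM, and 554 to 713 when a number was left out and 4 pairs remained. The calls over all transcripts were 7 for usage (14 without SRp55 library 1, 4 without control library 2) and 48 for level (202 on reads, 18 without the minimum level, 12 to 55 when a library was left out).

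With the replicate number as a block, the share difference was 0.595 points (exact sign-flip permutation p = 0.1875, smallest possible 0.0625). The block left 0 members with changed usage and 0 with changed level by limma, and 0 and 2 transcripts of all kinds. At an unadjusted p under 0.05 it left 445 of 8857 members in usage, against 3406 of 56641 transcripts of all kinds. In level it left 719 of 8857 members, against 6355 of 57818 transcripts. The share among members was the lower one in both fits. For SYNE4 the block gave -4.76 (usage) and -3.82 (level). The median read number of 150 per member and library, shared between overlapping models, limits the single shares.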

Other observations

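Some retained-intron models that did not pass in the report passed a test in 1 or 2 of the alternatives, and part of them are given as values. Without control library 3 the ABCB6 model ENST00000492543.1 (a transporter of the ABC family) was called lower in usage, at -4.13 on the log2 scale (limma adjusted p = 0.00424). Without control library 1 the FYCO1 model ENST00000471739.1 (an adaptor of autophagosome transport) was called lower, at -3.60 (limma adjusted p = 0.0396). Without SRp55 siRNA library 1 the USP11 model ENST00000497179.1 (a deubiquitinase) was called higher, at 3.74 (limma adjusted p = 0.00667). In the level fit, the CHD7 model ENST00000528280.1 (a chromatin remodeller) was called higher on estimated reads, at 3.17 (limma adjusted p = 0.0496), and without control library 4, at 3.85 (limma adjusted p = 0.0205). The ABCB6, FYCO1 and USP11 models passed the level fit in the same alternatives and directions as in usage. Models of AMN, TTC3, CCDC90B, ULK3, CENPV, AKAP9, MCM4 and CDC45 passed the level fit as well, each in 1 or 2 alternatives.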
